A study of Mus musculus with 2 samples.

Results

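Among alveolar type 2 (AT2) cells of the fetal mouse lung shortly before birth (E18.5), a minority were high in antioxidant enzyme or Sprr1a transcripts. They were taken as the cells with the surfactant gene Sftpc at 4% or more of their unique molecular identifiers (UMIs), no UMI of the leukocyte gene Ptprc, and 7 genes (Cbr3, Srxn1, Gpx2, Gsta3, Sprr1a, Gclm and Nqo1) summing to 0.05% of UMIs or more. This rule found 352 cells, hereafter the antioxidant-high cells, among 12027 kept cells of the E18.5 library and 26113 of both libraries. They made up 7.62% of the 4618 E18.5 cells that passed the Sftpc and Ptprc gates (95% exact interval 6.87 to 8.43%). Of the 352, 213 (4.61% of the gated cells) reached the threshold without Sprr1a, which is no antioxidant enzyme. The other 139 (3.01%) reached it only with Sprr1a. The comparison cells were the 3659 gated cells in which the same sum lay below 0.02%, and 607 cells lay between the thresholds. The values of the 7 genes therefore follow from the choice and are given as a description, and the results are on the other genes.

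The study sorted red, CD326-stained lung cells of mice that carry a tamoxifen-inducible recombinase at Cdh16 and a tdTomato reporter, to follow cells that had expressed Cdh16, a cadherin gene. The genotype is Cdh16CreERT2/wt;R26-tdTomatoflox/wt in the series design and Cdh16CreERT2;tdTomatoflox/flox in the labels, and both libraries share it. Pregnant females had tamoxifen from embryonic day 12.5, injected at 0.1 mg per kg body weight or fed at 0.4 g per kg of diet, and the sources used here do not give the route per library. Antioxidant-high and comparison cells came from the same E18.5 library, and a library of postnatal day 10 (P10), whose labels give its tissue as embryonic, served as a second description. The number of animals per library is not given either, and with 1 library per age no difference below has a replicate check. Cells of 1 library are not replicates, so no p-value was computed, and every interval covers counting error only.

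The genes of the rule belong, apart from Sprr1a, to the defence against oxidants and electrophiles that the transcription factor NRF2 (gene Nfe2l2) controls. KEAP1 normally holds NRF2 for degradation, and modified KEAP1 cysteines let NRF2 accumulate and bind, with small MAF partners, to antioxidant response elements. Its known targets supply glutathione, thioredoxin reduction, NADPH and detoxification. AT2 cells make surfactant and face high oxygen once breathing starts. Sprr1a encodes a precursor of the cornified envelope of squamous epithelium and is widely known as a stress-induced gene.

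The E18.5 library held 12739 barcodes and 137837590 UMIs, and 712 barcodes were left out by the filter on cells. Antioxidant-high cells had a median of 14124 UMIs and 3761.5 genes, against 11838 UMIs and 3339 genes in comparison cells. Mitochondrial genes took a median of 1.36% of UMIs in antioxidant-high cells and 1.43% in comparison cells. All 15 AT2 markers were detected at 10 CPM (counts per 1000000 summed UMIs) or more in both sets. Sftpc took a median of 9.36% of UMIs in antioxidant-high cells and 11.1% in comparison cells, whereas E18.5 cells gated on leukocyte markers held 0.580%. Markers of another cell class passed their threshold in 18 antioxidant-high cells (5.11%) and in 6.53% of comparison cells. Cells with UMIs of both Xist and Y-linked genes, which free RNA or a pair of cells of both sexes would give, were 14.5% of antioxidant-high and 16.1% of comparison cells.

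Promoters of the rule genes were read for the sequence that NRF2 is known to bind, because the members were chosen for such genes. The motifs searched were TGACNNNGC and the NRF2-MAF form TGANTCAGC, on both strands, in the 250 bases before each RefSeq gene start (GRCm38.p6). A gene with several starts counted where the window of any start held a match. The string TGACTCAGC satisfies both. A match lay before 4 of 7 rule genes (57.1%), against 12.2% of 27025 genes and 15.3% of those measured here. The windows below run 5′ to 3′ on the gene's strand, with the match in capitals, which reads as the reverse complement where it lies on the opposite strand. They are Srxn1 at chr2:152105454-152105513 (+), Sprr1a at chr3:92485995-92486054 (−), Gclm at chr3:122245398-122245457 (+) and Gsta3 at chr1:21240439-21240498 (+), in that order.
Srxn1: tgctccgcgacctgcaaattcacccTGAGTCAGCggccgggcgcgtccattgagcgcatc
Sprr1a: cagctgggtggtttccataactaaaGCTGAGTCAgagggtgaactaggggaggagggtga
Gclm: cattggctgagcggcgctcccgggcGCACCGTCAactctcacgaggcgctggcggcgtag
Gsta3: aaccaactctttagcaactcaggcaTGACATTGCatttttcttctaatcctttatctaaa

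Neither motif was in the window of Cbr3, Gpx2 or Nqo1, which says only that these letters are not there. Sprr1a, which is no antioxidant enzyme, held the same TGACTCAGC string as Prdx1. Among NRF2-type genes that were higher in antioxidant-high cells and had a promoter entry, 5 of 19 held either motif (26.3%). Those genes were Prdx1, Osgin1, Txnrd1, Mafg and Ugdh, whose strings all differ, and the first 3 are shown as examples. Of all higher genes with an entry, 16 of 62 held a match (25.8%), and of the lower genes 11 of 64 (17.2%). A match is a description of the letters and no evidence of binding. The windows are Prdx1 at chr4:116685441-116685500 (+), Osgin1 at chr8:119437023-119437082 (+) and Txnrd1 at chr10:82859089-82859148 (+). The Osgin1 and Txnrd1 windows precede RefSeq starts that lie inside the gene as GENCODE vM21 bounds it (for Txnrd1, chr10:82833951-82897712).
Prdx1: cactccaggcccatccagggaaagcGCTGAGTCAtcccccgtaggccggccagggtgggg
Osgin1: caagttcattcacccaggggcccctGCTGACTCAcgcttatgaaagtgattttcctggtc
Txnrd1: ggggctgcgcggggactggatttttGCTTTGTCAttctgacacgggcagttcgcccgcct

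The 7 rule genes summed to 1294 CPM in antioxidant-high cells and 64.1 CPM in comparison cells. Sprr1a was at 487 CPM in antioxidant-high and 7.48 CPM in comparison cells. Cbr3, a carbonyl reductase, was at 324 CPM in antioxidant-high and 9.81 CPM in comparison cells. Gclm, the modifier subunit of the enzyme that starts glutathione synthesis, was at 223 CPM in antioxidant-high and 33.6 CPM in comparison cells, the highest comparison level of the 7. Srxn1, which repairs over-oxidised peroxiredoxins, was at 105 CPM in antioxidant-high and 3.85 CPM in comparison cells. Gsta3, a glutathione transferase, was at 75.4 CPM in antioxidant-high and 4.75 CPM in comparison cells. Gpx2, a glutathione peroxidase, was at 47.2 CPM in antioxidant-high and 1.96 CPM in comparison cells, and Nqo1, a quinone reductase, at 33.5 CPM in antioxidant-high and 2.69 CPM in comparison cells.

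Membership rested on a median of 15 UMIs of the 7 genes per cell, with a range of 1 to 115. Of the 352 cells, 252 had 10 or more such UMIs and 14 had only 1 or 2. The lowest member reached 0.05003% of UMIs and the highest gated cell below the threshold 0.04986%, with 38 members between 0.05 and 0.055% and 29 other cells between 0.045 and 0.05%. UMIs of 4 or more of the 7 genes were found in 208 antioxidant-high cells, and 38 carried a single one. A further 54 gated cells reached the share but held a Ptprc UMI and were left out, as were 485 such cells on the comparison side.

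A gene left out of the rule stood higher in cells chosen by the other 6 as well. The rule genes were chosen with earlier results of these data known. The ratios below can follow from that choice and are a description only. Cbr3 was then at 307 CPM in 293 chosen cells and 15.05 CPM in 3803 comparison cells, a ratio of 20.4 (18.7 to 22.3). The ratio was 16.9 for Srxn1, 16.3 for Gpx2, 10.7 for Gsta3 and 8.78 for Nqo1. Sprr1a had 5.96 (5.50 to 6.44) and Gclm 4.95 (4.59 to 5.33). After every cell was thinned to 3000 UMIs, Sprr1a was detected in 48.8% of 334 antioxidant-high cells and 1.93% of 3532 comparison cells, with 1.80% of 947 leukocyte-gated cells as a level for free RNA. Before thinning, those shares were 65.1% of antioxidant-high, 8.64% of comparison and 8.36% of leukocyte-gated cells, at median depths of 14124, 11838 and 10359 UMIs. The Sprr1a share of comparison cells, which were chosen for a low sum, was thus at the leukocyte-gated level. Cbr3 was detected in 39.2% of thinned antioxidant-high cells, 2.75% of comparison and 4.54% of leukocyte-gated cells (65.9%, 12.0% and 14.3% before thinning).

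The members fell into 2 kinds by the genes that carried them past the threshold. Without Sprr1a in the sum, 213 of the 352 cells still reached 0.05% (hereafter antioxidant-gene members), and 139 did so only with it (Sprr1a-dependent members). Sprr1a was the most counted rule gene in 169 of the 352 cells, Cbr3 in 105, Gclm in 49 and Srxn1 in 17. The split itself makes the 6 antioxidant genes high in the first kind and Sprr1a high in the second, so the rule genes only describe it. Cbr3 was at 507 CPM in antioxidant-gene members, 40.8 CPM in Sprr1a-dependent members and 9.81 CPM in comparison cells. Sprr1a was at 247 CPM in antioxidant-gene members, 855 CPM in Sprr1a-dependent members and 7.48 CPM in comparison cells. All 7 genes were above the comparison level in both kinds, but the comparison cells were chosen for a low sum of the 7. In the 3931 comparison cells chosen without Sprr1a in the sum, Sprr1a was at 41.5 CPM. Over all 4618 gated cells, Spearman correlations of per-cell shares were 0.12 to 0.18 for the 6 pairs with Sprr1a and 0.16 to 0.32 for the other 15 pairs. These points share a library and a depth, and values this low in sparse counts are given as a description only.

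**Figure D1:**
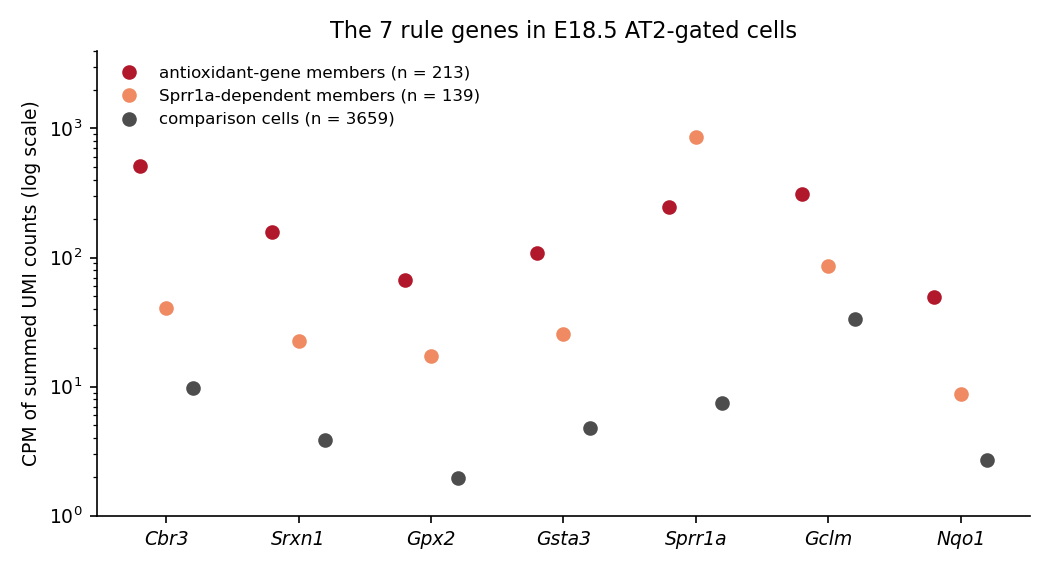
CPM of summed UMI counts (log axis) of the 7 rule genes in antioxidant-gene members, Sprr1a-dependent members and comparison cells of the E18.5 library, 1 point per gene and set of cells. Sprr1a is highest in the Sprr1a-dependent members (855 CPM) and the other 6 genes are highest in the antioxidant-gene members. All 7 lie lowest in the comparison cells, which were chosen for a low sum of them.

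Outside the rule, the NRF2-type antioxidant genes stood out among the higher genes. A gene counted as measured at a mean of 20 CPM or more over both sums, and was called higher or lower where the sums differed by a ratio of 1.5. Of 5541 genes measured, 77 were higher in antioxidant-high cells (1.39%) and 85 lower (1.53%), leaving out the rule and gate genes. The E18.5 counts of each list below stand against these overall shares. Of 47 NRF2-type genes listed without the rule genes, 31 were measured, 23 were higher and 0 lower. Their median log2 ratio was 1.04, against -0.01 over all measured genes. Of the 23 higher genes, 4 (Gsta1, Akr1b8, Slc7a11 and Gss) were under 20 CPM in comparison cells and passed the filter through the antioxidant-high cells. All 23 were past the same ratio both in cells with UMIs of Xist but of no Y-linked gene and in cells where the reverse held.

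Of the listed genes of glutathione supply, the 4 measured were higher. Gclc, the catalytic subunit beside Gclm, was at 1747 CPM in antioxidant-high cells and 732 CPM in comparison cells, a ratio of 2.39 (2.34 to 2.44). Slc7a11, the cystine importer, was at 90.4 CPM in antioxidant-high and 13.6 CPM in comparison cells, a ratio of 6.67 (5.94 to 7.48). Leukocyte-gated cells held Slc7a11 at 218 CPM, and the part of leukocyte RNA in its value was not tested. The 8 leukocyte markers took 0.374% of pooled UMIs in antioxidant-high and 0.642% in comparison cells. Most of both was Lyz2, which AT2 cells express too (3613 CPM in antioxidant-high and 6262 CPM in comparison cells). Gss, which completes glutathione, was at 32.8 CPM in antioxidant-high and 16.0 CPM in comparison cells. Gsr, which regenerates it, was at 134 CPM in antioxidant-high and 40.3 CPM in comparison cells. Cth, which makes cysteine, is in no list and was chosen after its values were seen, and it was lower, at 36.5 CPM in antioxidant-high and 58.7 CPM in comparison cells, a ratio of 0.622 (0.538 to 0.715).

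The transferases that use glutathione were among the largest ratios. Gstm1 was at 194 CPM in antioxidant-high cells and 24.1 CPM in comparison cells, a ratio of 8.05 (7.42 to 8.74). Gstm1 UMIs were found in 33.5% of thinned antioxidant-high cells, 6.54% of thinned comparison cells and 7.18% of thinned leukocyte-gated cells (60.5%, 24.3% and 22.9% before thinning). Gsta4 was at 278 CPM in antioxidant-high and 57.2 CPM in comparison cells, a ratio of 4.86 (4.57 to 5.17). Gsta1 was at 48.4 CPM in antioxidant-high and 0.353 CPM in comparison cells, and 77.9% of its UMIs came from the 18 cells with most of them. Gsta2, a near-identical copy between which and Gsta1 reads can be split, was at 20.1 CPM in antioxidant-high and 1.00 CPM in comparison cells, so both values are uncertain. Mgst1, a membrane transferase, did not pass the ratio at 611 CPM in antioxidant-high and 446 CPM in comparison cells.

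The enzymes of the pentose phosphate pathway, which yields NADPH, were higher in the 3 of 3 listed that were measured. Taldo1 was at 703 CPM in antioxidant-high cells and 199 CPM in comparison cells, a ratio of 3.53 (3.41 to 3.66). Pgd was at 328 CPM in antioxidant-high and 92.7 CPM in comparison cells, and Tkt at 199 CPM in antioxidant-high and 90.0 CPM in comparison cells. G6pdx, the first enzyme, did not pass the filter at 18.8 CPM in antioxidant-high and 6.81 CPM in comparison cells. Me1 and Idh1, which yield NADPH outside this pathway, had ratios of 1.24 and 1.15 and did not pass.

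Genes of the thioredoxin branch and detoxifying reductases were higher too. Txnrd1, thioredoxin reductase, was at 266 CPM in antioxidant-high and 85.0 CPM in comparison cells, a ratio of 3.13 (2.95 to 3.32). Prdx1, a peroxiredoxin, was at 1283 CPM in antioxidant-high and 730 CPM in comparison cells, a ratio of 1.76 (1.71 to 1.80). Txn1 itself had a ratio of 1.27 and did not pass. Cbr1, the carbonyl reductase next in kin to Cbr3, was at 161 CPM in antioxidant-high and 47.0 CPM in comparison cells. Akr1b8, an aldo-keto reductase, was at 42.7 CPM in antioxidant-high and 6.08 CPM in comparison cells, a ratio of 7.02 (5.91 to 8.32). Blvrb, a biliverdin reductase, was at 235 CPM in antioxidant-high and 79.9 CPM in comparison cells. Esd, which acts on the glutathione adduct of formaldehyde, was at 448 CPM in antioxidant-high and 189 CPM in comparison cells. Osgin1, a stress-induced growth inhibitor, had a ratio of 3.07, Ptgr1, an alkenal reductase, had 1.97 and Ugdh, which makes the sugar donor for glucuronidation, had 1.87. Ftl1, the ferritin light chain, was at 5456 CPM in antioxidant-high and 2818 CPM in comparison cells, whereas Fth1, the heavy chain, had a ratio of 1.27. Hmox1, which breaks down haem, was at 70.9 CPM in antioxidant-high and 38.8 CPM in comparison cells. The 8 measured genes that did not pass were Akr1a1, Cat, Fth1, Idh1, Me1, Mgst1, Prdx6 and Txn1, with ratios of 1.01 to 1.37. The 16 list genes under the filter include Gstp1, a transferase with close copies, at 33.5 CPM in antioxidant-high and 4.36 CPM in comparison cells, and Abcc1, an exporter of glutathione conjugates, at 10.5 CPM in antioxidant-high and 2.92 CPM in comparison cells.

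**Figure D2:**
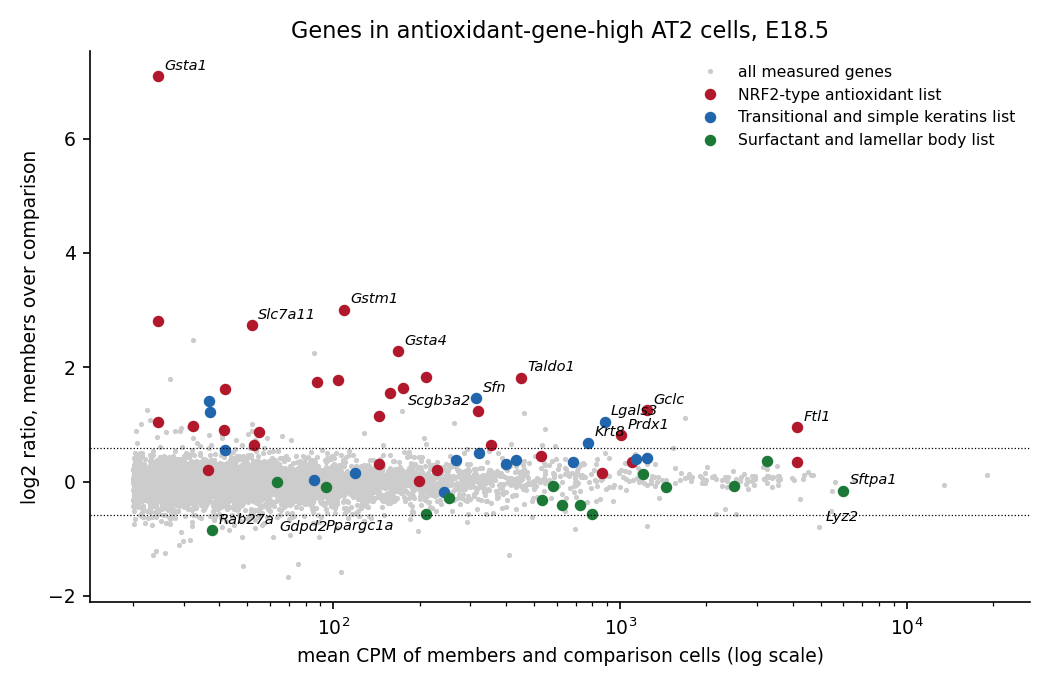
Log2 ratio of antioxidant-high over comparison cells (vertical axis) against the mean CPM of both (log axis), 1 point per gene measured in the E18.5 library, without rule and gate genes; dotted lines mark a ratio of 1.5 in either direction. Most NRF2-type points lie above the upper line, led by Gsta1, Gstm1, Akr1b8 and Slc7a11, while 13 of 15 surfactant points lie below 0, 1 of them (Rab27a) past the lower line.

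The regulators differed less between the sets of cells. Nfe2l2 was at 524 CPM in antioxidant-high cells and 526 CPM in comparison cells, a ratio of 0.996 (0.959 to 1.03). Keap1 was at 40.8 CPM in antioxidant-high and 24.1 CPM in comparison cells, a ratio of 1.69 (1.47 to 1.95), but its log2 ratio was 0.48 after thinning, within the 1.5-fold limit. Mafg, a small MAF partner, and Sqstm1, an autophagy receptor that binds KEAP1, both had a ratio of 1.56. Without Gclm in the rule their log2 ratios were 0.52 (Mafg) and 0.56 (Sqstm1), within the limit. The other 8 of 11 measured regulators did not pass, Cul3, the ligase scaffold for KEAP1, and Bach1, a repressor at the same elements, among them (0.964 and 1.01). Antioxidant enzymes outside the NRF2-type list did not pass in either direction, 0 of 20 measured, with a median log2 ratio of 0.07. Over all measured genes 1.39% were higher and 1.53% lower, so 0 of 20 is near the overall shares. Among the 20, Sod1 and Sod2, the superoxide dismutases, had ratios of 1.02 and 1.01, and Gpx4, which reduces lipid peroxides, had 1.32. Catalase (Cat), counted in the NRF2-type list, had 1.01.

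NRF2-type genes took more of a cell's UMIs the higher its rule share was, as the plot of gene shares over the rule share shows. The 45 genes summed took a median of 0.528% of UMIs in 1748 cells without any rule UMI and 0.556% in 1911 cells below 0.02%. The median was 0.628% in the 607 cells between the thresholds, 0.824% in 180 cells between 0.05 and 0.1%, 1.02% in 108 cells up to 0.2% and 1.56% in 64 cells above. Depth differed along the way, with a median of 9195 UMIs in cells with no rule UMI and 12345 to 15434 in the other bins. The rise was not particular to NRF2-type genes. Genes of the transitional alveolar state, described below, had a median of 0.433% in cells without any rule UMI and 0.798% in the 64 cells above. Surfactant and lamellar body genes, without Sftpc, lay between medians of 1.79 and 2.05% in all 6 bins.

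**Figure D3:**
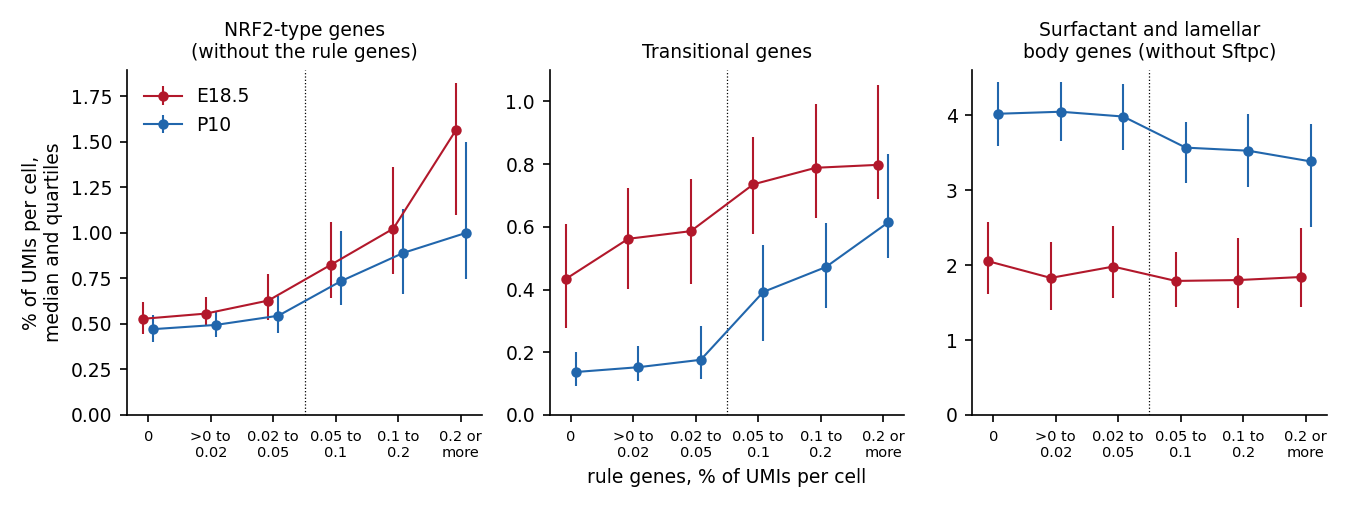
Share of UMIs per cell (median, bars from the lower to the upper quartile) taken by NRF2-type genes, transitional genes and surfactant genes, against the share of the rule genes in the cell, for gated cells of E18.5 and P10; members lie right of the dotted line. At E18.5 the NRF2-type median reaches 1.56% in the last bin, against 0.528% in the first; the last P10 bin holds 19 cells.

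Genes of the transitional alveolar state, which AT2 cells pass through on injury, were higher in part. Of 16 measured, 5 were higher and 0 lower, and the median log2 ratio was 0.41. Sfn, the epithelial 14-3-3 sigma, was at 461 CPM in antioxidant-high cells and 168 CPM in comparison cells, a ratio of 2.74 (2.62 to 2.86). Lgals3, galectin-3, was at 1193 CPM in antioxidant-high and 575 CPM in comparison cells. Plaur, the urokinase receptor, was at 53.4 CPM in antioxidant-high and 20.1 CPM in comparison cells, and its log2 ratio of 1.41 was 0.76 where comparison cells with Ptprc UMIs were kept. Cldn4, a tight junction claudin, was at 52.0 CPM in antioxidant-high and 22.4 CPM in comparison cells. Krt8, a simple keratin, was at 955 CPM in antioxidant-high and 595 CPM in comparison cells, while Krt18, Krt19 and Krt7 had ratios of 1.24 to 1.32 and did not pass. None of 18 measured AT1 identity genes passed in either direction, near the overall shares of 1.39% higher and 1.53% lower.

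Several stress genes were higher. Gdf15, a stress-induced secreted factor, was at 142 CPM in antioxidant-high cells and 29.9 CPM in comparison cells, a ratio of 4.74 (4.35 to 5.17). Asns, asparagine synthetase, had a ratio of 1.70, and these were the only higher genes of 16 measured in the integrated stress response list, where Atf4 had 1.25, 15 of 16 ratios were above 1 and the median log2 ratio was 0.22. Of 15 genes of the unfolded protein response, 0 passed, near the overall shares. Hspa5, the main chaperone of the endoplasmic reticulum, had a ratio of 1.22. Among 16 inflammatory genes, Cxcl1, Il6 and Nfkbia were higher with a list median of 0.11 on the log2 scale, and 58.1% of the Cxcl1 UMIs and 52.1% of the Il6 UMIs came from the 18 cells with most of them. With comparison cells that carry Ptprc UMIs kept, the log2 ratio of Cxcl1 was 0.30, within the limit, against 0.82 without them. Fosl1, an AP-1 subunit, was the only higher gene of 20 measured immediate early genes, at 31.5 CPM in antioxidant-high and 13.2 CPM in comparison cells. Of 9 measured squamous genes beside Sprr1a, Anxa1 (716 CPM in antioxidant-high and 378 CPM in comparison cells) and S100a6 were higher, with a median log2 ratio of 0.43. The log2 ratio of S100a6 was 0.59, at the limit, and lay within it under 8 alternatives, at 0.47 without Sprr1a in the rule. Creg1, a secreted lysosomal glycoprotein in no list, was at 645 CPM in antioxidant-high and 280 CPM in comparison cells.

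Secretoglobins, the secretory proteins of airway club cells, were higher through few cells. Scgb3a2 was at 244 CPM in antioxidant-high and 103 CPM in comparison cells, with 81.1% of its UMIs in the 18 cells with most of them. Scgb1a1 was at 2295 CPM in antioxidant-high and 1061 CPM in comparison cells, with 73.1% in 18 cells. Club markers took 1% or more of UMIs in 7 antioxidant-high and 27 comparison cells, their median share was 0.112% in antioxidant-high and 0.110% in comparison cells, and Bpifa1 was at 0 in antioxidant-high cells. Without those cells the log2 ratio of Scgb3a2 was -0.16, against 1.24 with them. The same cells left out gave 77 higher genes and 23 higher NRF2-type genes, as many as before.

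Most surfactant genes had ratios below 1 within the 1.5-fold limit, and 3 genes of AT2 identity and the fetal AT2 cell were lower. Of 15 measured surfactant and lamellar body genes, 0 were higher and 1, Rab27a, was lower (27.0 CPM in antioxidant-high and 48.7 CPM in comparison cells). Sftpb and Sftpa1, surfactant proteins, had ratios of 0.948 and 0.897, and Abca3, the lamellar body lipid transporter, had 0.679. Of 28 measured genes of AT2 identity and the fetal AT2 cell, Lyz2, Retnla and Bex2 were lower and Mt2, a metallothionein, was higher, with a median log2 ratio of -0.29. Lyz2 was at 3613 CPM in antioxidant-high and 6262 CPM in comparison cells, a ratio of 0.577 (0.569 to 0.585), with a log2 ratio of -0.79 that was -0.56 at a rule share of 0.1% and -0.57 in cells with UMIs of Y-linked genes but not of Xist, within the 1.5-fold limit. Retnla, a secreted resistin-like protein, had a log2 ratio of -0.77, with -0.41 in those cells and -1.08 in cells with Xist but no Y-linked UMIs. Bex2 was at 503 CPM in antioxidant-high and 890 CPM in comparison cells. Lyz2 is also a macrophage gene. The 8 leukocyte markers, with Ptprc at 0 by the gate, took a median of 0.172% of UMIs in antioxidant-high and 0.396% in comparison cells. Lyz2 is among them and made up most of their pooled UMIs, so that share mainly restates Lyz2. The part of leukocyte RNA in the Lyz2 value was not tested. None of 4 cell division, 10 apoptosis, 3 interferon or 7 xenobiotic genes measured passed in either direction. With 1.39% of all measured genes higher and 1.53% lower, 0 in lists this small is near the overall shares.

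Of the 85 lower genes, those with the lowest ratios by the rule for named genes belonged mostly to no list. Gdpd2, a glycerophosphodiesterase-domain gene, was at 41.7 CPM in antioxidant-high and 81.7 CPM in comparison cells, a ratio of 0.510 (0.446 to 0.580). Ppargc1a, a coactivator of mitochondrial gene expression, was at 60.7 CPM in antioxidant-high and 118 CPM in comparison cells. None of 18 measured respiratory chain genes passed in either direction, near the overall shares, with 15 ratios above 1. Pon1, a lactonase, was at 89.5 CPM in antioxidant-high and 161 CPM in comparison cells. Fabp12, Atp6v1c2, Zmat4, Arl15, Pde7b and Ints6l had ratios between 0.568 and 0.630. Rian and Mirg, noncoding RNAs of the imprinted Dlk1 region, had 0.617 and 0.603, and Dlk1 itself had 0.71. Vim, a mesenchymal and leukocyte filament gene, had 0.609, but its log2 ratio was -0.02 without the deepest cells and those with other classes' markers, against -0.72 with them. The 4 haemoglobin transcripts had ratios of 0.313 to 0.410, and the 5 erythroid markers took 0.0364% of pooled UMIs in antioxidant-high and 0.0955% in comparison cells, 1 of which held 56.0%. Of the lipid synthesis genes, 0 of 17 fatty acid and phospholipid genes and 0 of 9 sterol genes passed, near the overall shares. Their median log2 ratios were -0.23 and -0.21.

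Of the NRF2-type genes, 19 of 32 measured were higher and 0 lower in antioxidant-gene members over Sprr1a-dependent members, where 119 of 5512 genes were higher (2.16%) and 20 lower (0.363%). Of the 19, Akr1b8, Gss, Gsta1 and Gstp1 were under 20 CPM in Sprr1a-dependent members and passed the filter through the antioxidant-gene members. Their median log2 ratio was 0.78, against 0.04 over all measured genes. Gstm1 was at 289 CPM in antioxidant-gene members, 48.7 CPM in Sprr1a-dependent members and 24.1 CPM in comparison cells. Gsta4 was at 385 CPM in antioxidant-gene members, 114 CPM in Sprr1a-dependent members and 57.2 CPM in comparison cells. Taldo1 was at 919 CPM in antioxidant-gene members, 369 CPM in Sprr1a-dependent members and 199 CPM in comparison cells. For these genes the Sprr1a-dependent members lay between the other sets. The sets were cut on rule genes of the same type, so this order can follow from the cut and is a description only.

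The transitional genes as a set did not follow that order. Of 17 measured, 0 were higher and 1 was lower in antioxidant-gene over Sprr1a-dependent members, with a median log2 ratio of -0.11. Ratios were above 1 for 5 of the 17. Sfn did lie in that order, at 495 CPM in antioxidant-gene members, 408 CPM in Sprr1a-dependent members and 168 CPM in comparison cells. So did Plaur, at 55.6 CPM in antioxidant-gene members, 50.1 CPM in Sprr1a-dependent members and 20.1 CPM in comparison cells. Lgals3 was at 1191 CPM in antioxidant-gene members, 1196 CPM in Sprr1a-dependent members and 575 CPM in comparison cells. Krt8 was at 953 CPM in antioxidant-gene members, 958 CPM in Sprr1a-dependent members and 595 CPM in comparison cells. Cldn4 was the lower gene, at 43.3 CPM in antioxidant-gene members, 65.4 CPM in Sprr1a-dependent members and 22.4 CPM in comparison cells. Cxcl1 was likewise lower, at 39.3 CPM in antioxidant-gene and 72.4 CPM in Sprr1a-dependent members. Club markers took 0.222% of pooled UMIs in antioxidant-gene members and 0.451% in Sprr1a-dependent members, but the median per cell was 0.112% in both kinds. The highest cell held 7.18% in antioxidant-gene and 13.8% in Sprr1a-dependent members. Scgb3a2, whose UMIs lay mostly in few cells, had a ratio of 0.358 in antioxidant-gene over Sprr1a-dependent members.

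**Figure D4:**
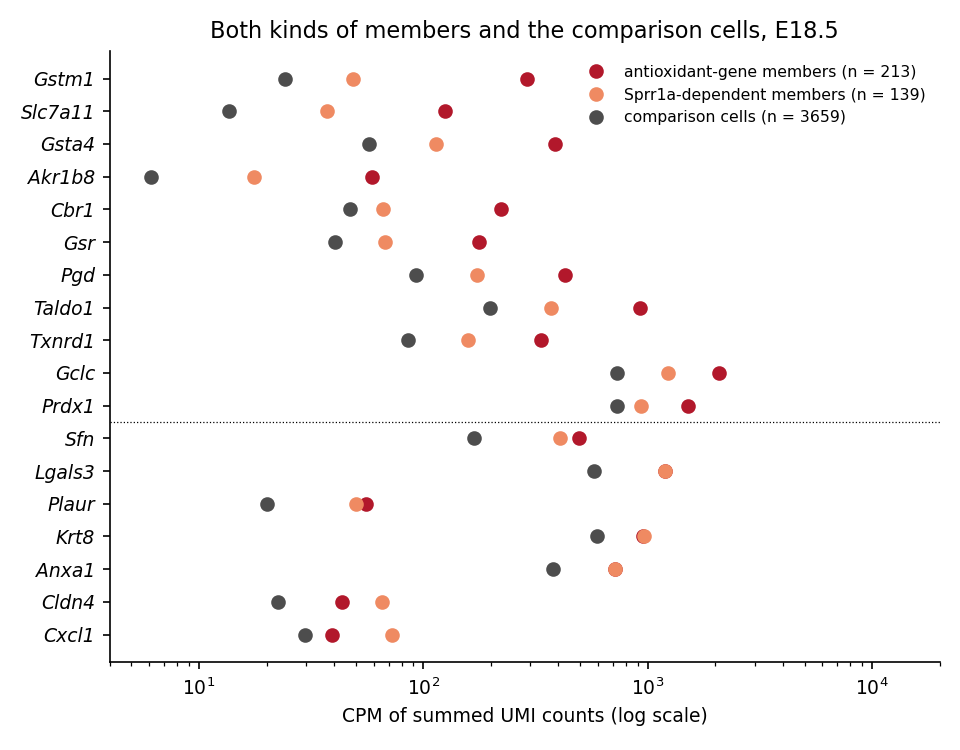
CPM of summed UMI counts (log axis) of 11 NRF2-type genes (above the dotted line) and 7 other genes (below it) in antioxidant-gene members, Sprr1a-dependent members and comparison cells at E18.5. The first 11 genes are highest in antioxidant-gene members, whereas Lgals3, Krt8 and Anxa1 are nearly equal in both kinds of members and above the comparison cells.

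Other cells of the E18.5 library were gated by their own markers and Sftpc below 1%, to place the level of the rule genes. Club-gated cells held a rule sum of 449 CPM and ciliated-gated cells 413 CPM, against 1294 CPM in the antioxidant-high cells. Of cells with at least 3000 UMIs, 30.3% of club-gated (24.3 to 36.8%) and 25.8% of ciliated-gated cells (20.7 to 31.4%) reached 0.05%. The share was 5.22% in mesenchymal-gated, 1.26% in AT1-gated and 1.06% in leukocyte-gated cells. The genes behind the sums differed, with Gsta3 at 153 CPM in club-gated cells and 75.4 CPM in antioxidant-high cells. Sprr1a was at 34.6 CPM in club-gated and 487 CPM in antioxidant-high cells, and Srxn1 at 14.5 CPM in club-gated and 105 CPM in antioxidant-high cells. Ciliated markers took a median of 0.00344% of UMIs in antioxidant-high cells and 0.00431% in comparison cells.

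At E18.5 the share of members differed between cells read as female and male. Of all gated E18.5 cells, 15.9% held UMIs of both Xist and Y-linked genes and are in neither set. Of 1824 gated cells with UMIs of Xist but of no Y-linked gene, 120 were antioxidant-high (6.58%, 5.48 to 7.82%), and of 1184 cells with Y-linked and no Xist UMI, 120 were (10.1%, 8.47 to 12.0%). The intervals do not overlap, but they cover counting error only, and sex and animal cannot be told apart in 1 library. The log2 ratio of Gstm1 was 2.71 in the cells with Xist and 3.42 in those with Y-linked UMIs, that of Gclc 1.41 and 1.19, and that of Taldo1 1.79 and 1.91. In the P10 library the share of members was 1.79% (1.45 to 2.18%) in cells with Xist but no Y-linked UMI. It was 2.02% (1.42 to 2.78%) in P10 cells where the reverse held, and those intervals overlap.

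The same rule found fewer cells in the P10 library. Of 10467 gated P10 cells, 204 were antioxidant-high (1.95%, 1.69 to 2.23%), against the 7.62% of E18.5, and age and library cannot be told apart. Of 5829 genes measured at P10, 318 were higher (5.46%) and 237 lower (4.07%) in antioxidant-high over comparison cells. Of the genes higher at E18.5, 50 were also higher at P10 (64.9% of the E18.5 list and 15.7% of the P10 list), and 0 were lower; 58 of the 77 were measured at P10. Of the genes lower at E18.5, 37 were also lower at P10 (43.5% of the E18.5 list and 15.6% of the P10 list), and 0 were higher. The NRF2-type list gave 18 higher and 0 lower of 30 measured at P10, of which 16 were higher at E18.5 too. Gstm1 had a ratio of 8.05 at E18.5 and 2.71 at P10, Gsta4 4.86 and 2.54, and Gclc 2.39 and 3.37. Cbr1 had 3.41 at E18.5 and 1.25 at P10. Cbr3, a rule gene, was at 324 CPM in E18.5 and 63.6 CPM in P10 antioxidant-high cells, and Srxn1 at 105 CPM in E18.5 and 176 CPM in P10 cells.

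The transitional genes passed more often at P10, with 13 of 14 measured higher and a median log2 ratio of 1.41, against 5 of 16 and 0.41 at E18.5. Sfn had a ratio of 2.74 at E18.5 and 6.68 at P10, Lgals3 2.07 and 5.79, and Krt8 1.60 and 1.99. Cldn4 is not among the 14, being under the filter at P10 with 33.5 CPM in antioxidant-high and 3.56 CPM in comparison cells. Transitional genes took a median of 0.562% of UMIs in E18.5 comparison-type cells with rule UMIs and 0.152% in those of P10, so the P10 ratios start from a lower level. Of 15 surfactant and lamellar body genes, 5 were lower at P10 (Abca3, Atp8a1, Cpm, Rab27a and Slc34a2), against Rab27a alone at E18.5. Markers of another class passed their threshold in 7.84% of antioxidant-high and 3.15% of comparison cells at P10, and their part in the P10 values was not tested. The difference between the ages was not tested, as each age had 1 library.

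**Figure D5:**
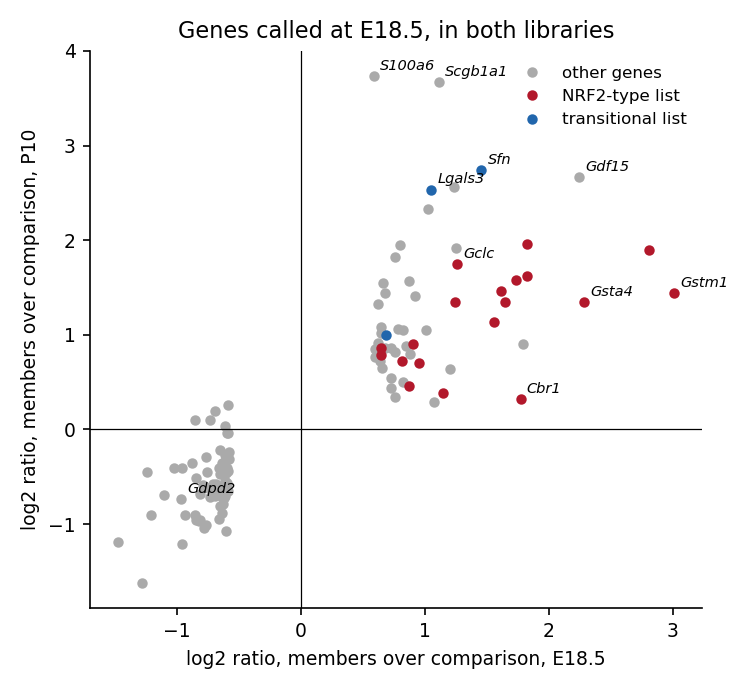
Log2 ratio of antioxidant-high over comparison cells at E18.5 (horizontal axis) and at P10 (vertical axis) for the 131 genes past the ratio at E18.5 and measured at P10, 1 point per gene. Of these, 126 have the same sign in both libraries; NRF2-type genes lie in the upper right, and Sfn and Lgals3 of the transitional list lie higher on the P10 axis than on the E18.5 axis.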

How the data were processed

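The deposited values are raw UMI counts of each gene in each barcode. The file headers name Cell Ranger 7.0.1, and the submitters' processing notes name mm10 and Seurat 4.0.0. The sources used here do not say whether intronic reads were counted. Kept cells had at least 500 genes, 1000 UMIs and at most 20% mitochondrial UMIs. No doublet caller was run, so doublets remain. The Ptprc gate was applied to both sets of cells. Counts were summed over cells and scaled to CPM (Python 3.11.15, numpy 2.4.6, scipy 1.17.1, pandas 2.3.3, matplotlib 3.10.9), and no test was made. CPM of summed counts, ratios and shares have exact 95% intervals (Poisson, conditional binomial, Clopper-Pearson). The calculation was checked on simulated counts. Named genes were the 15 largest ratios in each direction at a mean of 50 CPM or more, leaving out unnamed gene models and Xist, Tsix and Y-linked, mitochondrial, ribosomal and haemoglobin genes, but not other X-linked genes (Gdpd2, Bex2 and Ints6l are X-linked), plus list members, and Scgb1a1 and the haemoglobins as markers. Members and lists were chosen with earlier results of these data known. Kept cells of both libraries shared 52 barcode sequences. Promoters came from RefSeq (GRCm38.p6).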

Additional observations from a re-analysis of the deposited data

How the results depend on the processing

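No paired analysis was possible because each age had 1 library and all cells compared came from the same one. The count of higher NRF2-type genes was 23, and lay between 16 (a fold of 2) and 33 (no filter) under the alternatives run. Of 58 named genes, only Scgb3a2 changed direction, with a log2 ratio of -0.13 without the deepest cells and those with other classes' markers and -0.16 without cells with club markers at 1% or more, the last set after seeing the data. Another 16 named genes came within 1.5-fold under at least 1 alternative (Aldoa, Cxcl1, Ints6l, Keap1, Krt8, Lyz2, Mafg, Mirg, Mt2, Nfkbia, Pde7b, Retnla, S100a6, Sqstm1, Vim and Zmat4), and 41 stayed past it under all that were run for single genes. Against 77 higher and 85 lower genes, a rule share of 0.1% gave 143 and 211, thinning to 3000 UMIs 189 and 233, cells with UMIs of Xist but of no Y-linked gene 120 and 159, a mean of 50 CPM 43 and 41, no filter 2352 and 2079, and a fold of 2 gave 32 and 11. Filtering on 20 CPM over all kept cells, added after seeing the data, gave 133 lower genes. Thinning left out 18 antioxidant-high and 127 comparison cells. Against 7.62%, the share of members was 3.72% at a rule share of 0.1%, 6.34% without Cbr3 in the rule, 4.61% without Sprr1a, 6.04% without Gclm, 6.58% in cells with UMIs of Xist but of no Y-linked gene and 10.1% in the reverse. The cause was not tested, except that fewer UMIs, genes, cells or a stricter threshold enter by construction. Depth limits genes of few UMIs, and no alternative replaces a second E18.5 library.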
